A study of Drosophila melanogaster with 6 samples.

Results

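The UDP-glycosyltransferase genes of Drosophila melanogaster were followed in whole adult flies in which a widely active driver was combined with a transgene for an antimicrobial peptide, and in flies of the undriven transgene stock. Members were the genes whose current or annotated symbol begins with Ugt and a digit, with older CG symbols converted through the gene identifier. All 35 such genes of the RefSeq gene table (Release 6) were represented on the array by a probe set assigned to no further gene, among 11982 named genes. Each had exactly 1 probe set, so no member rests on a choice between probe sets. The rule used no measured value.

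The control flies came from the uncrossed UAS-AMP stock, and the experimental flies from the cross of da-GAL4 to that stock. da-GAL4 takes the promoter of daughterless, a gene expressed in most tissues, and so drives the UAS transgene widely. Each group had 3 samples, a pool of 25 males with 25 females on its own Drosophila Genome 2.0 array from Affymetrix. The labels name neither the peptide nor the age of the flies, and they do not say whether samples came from separate cultures, so the p-values rest on a sample-to-sample spread that may be technical only. Driver-only flies were not analysed here. The driver and the chromosomes of its stock differ between the groups together with the transgene's expression, and these cannot be told apart.

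UDP-glycosyltransferases are membrane-bound enzymes of the endoplasmic reticulum that transfer the sugar of a UDP-sugar, in insects mostly UDP-glucose, to small lipophilic molecules. The conjugates are more soluble and are more readily excreted. In insects the family acts on plant toxins, insecticides, pigments, hormones and odorants, and its transcripts are known from the gut, Malpighian tubules, fat body and antennae. In the fly many of the genes lie side by side in the genome.

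The arrays were used on the scale on which they were deposited. Median signals over all tested probe sets lay between 847 and 864.5 in the control and between 767 and 903 in the cross. Ratios of the 3′ to the 5′ control probe set were 1.44 to 1.54 for actin in the control and 1.42 to 1.63 in the cross. For GAPDH they were 0.42 to 0.49 in the control and 0.39 to 0.44 in the cross. The names of the GAPDH probe sets belong to different control series, so this ratio may not be that of a matched pair. Of 56 measured markers of the tissues and cells that whole flies hold, 54 were above the background range on all 6 arrays. Fbp1, a fat body gene, lay within it on 2 arrays, and Klf15, a factor of nephrocytes, on 5. Of 8 listed markers of the Malpighian tubule 6 were measured, of 8 of the midgut 7, of 8 of the fat body 8, of 8 of the antenna 6, and of 10 of the ovary 9. The defining markers Uro and Obp83a had no probe set annotated to them alone. The summed signals of the midgut list (414418 to 493059 in the control and 340790 to 479521 in the cross), of the fat body list (219292 to 250202 and 198994 to 263720) and of the tubule list (35023 to 40219 and 36442 to 39603) overlapped between groups. So did those of the 9 testis and accessory gland genes (118171 to 162989 and 146016 to 242280, with cross replicate 2 the highest) and of the 9 ovary, egg and yolk genes (430002 to 575702 and 374565 to 619348). Gene by gene, 6 of 7 midgut markers (median log2 difference -0.15), 7 of 8 of the fat body (-0.13), 5 of 6 of the antenna (-0.09) and 6 of 9 of the ovary list (-0.16) were lower in the cross, while in the testis and accessory gland list 8 of 9 were higher (0.39). The tubule markers split into 3 higher and 3 lower. The brightest genes dominate the sums, and in some single markers the groups were apart, against 19.8% of named genes. Higher in this way were 2 of 6 tubule markers and 1 of 9 of the testis list. Lower were 1 of 7 of the midgut, 1 of 8 of the fat body, 1 of 6 of the antenna and 2 of 9 of the ovary list. Among them Best2 of the tubule was 1.48-fold higher. Mal-A1 of the midgut was 1.93-fold lower and Cp18 of the ovary list 5.25-fold lower. None of these passed (limma, adjusted p = 0.0641 for Best2, 0.202 for Mal-A1 and 0.4 for Cp18). The Cp18 signals were 29711, 28476 and 27212 in the control and 2251.8, 3231 and 21902 in the cross, so cross replicate 3 lay near the control. The part of these tissues in the differences described next was not tested.

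As a family, the UDP-glycosyltransferase genes leaned lower in the cross on the deposited scale, and only Ugt36E1 passed the test. Of the 35 genes, 24 had a lower and 11 a higher mean log2 signal in the cross, with a median log2 difference of -0.17, while 50.2% of all named genes were lower and their median was -0.0020. In limma, with p-values adjusted by Benjamini-Hochberg across 18769 probe sets, 1 member passed an adjusted p of 0.05, lower in the cross. Of named genes 0.868% passed, 0.534% lower and 0.334% higher, and of all probe sets 0.783%. With a constant prior variance 0 members and 0% of probe sets passed, and 6 members, all lower, were at an unadjusted p under 0.05, against 10.5% of named genes in that fit. In the trended and robust fit 7 members were at an unadjusted p under 0.05, or 20.0%, against 13.8% of named genes. All 7 were lower in the cross, the direction of 9.18% of named genes, where 4.63% were higher. The groups did not overlap, all 3 samples of one lying to the same side of the other, in 9 members, or 25.7%, against 19.8% of named genes. Of these 9, 8 were lower (13.1% of named genes were lower in this way) and 1 was higher (6.72%). These shares are above the background by a few genes. The members were mostly dim, with a median at the 28.6th percentile of signal among named genes, and 21 of 35 had a mean signal of at most 1000. The shares over all named genes were not matched for signal, so whether the lean exceeds that of genes of like signal was not tested.

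The lean of the median shrank with quantile scaling but, set against all named genes, not with centring. With quantile scaling the members' median was -0.016 with 21 lower and 14 higher. The median of all named genes was then 0.03, and 46.6% of them were lower. Under that scaling, for example, the dim Ugt303B2 moved from -0.094 to 0.11 and the brighter Ugt49B1 from -0.366 to -0.365. With each array centred on its median the members' median was -0.12 with 22 lower and 13 higher. That of all named genes was 0.05, and 44.1% of them were lower. Centring moves all genes of an array alike, so members and named genes shifted together. The split of named genes at an unadjusted p under 0.05 was 555 higher and 1100 lower as deposited, 697 higher and 970 lower with quantile scaling, and 711 higher and 758 lower after centring. Under centring 5 members remained below that unadjusted p, all lower, and 7 did so under quantile scaling, also all lower. The differences were small in most members, as 27 of 35 differed by less than 1.5-fold and 33 by less than 2-fold.

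**Figure D1:**
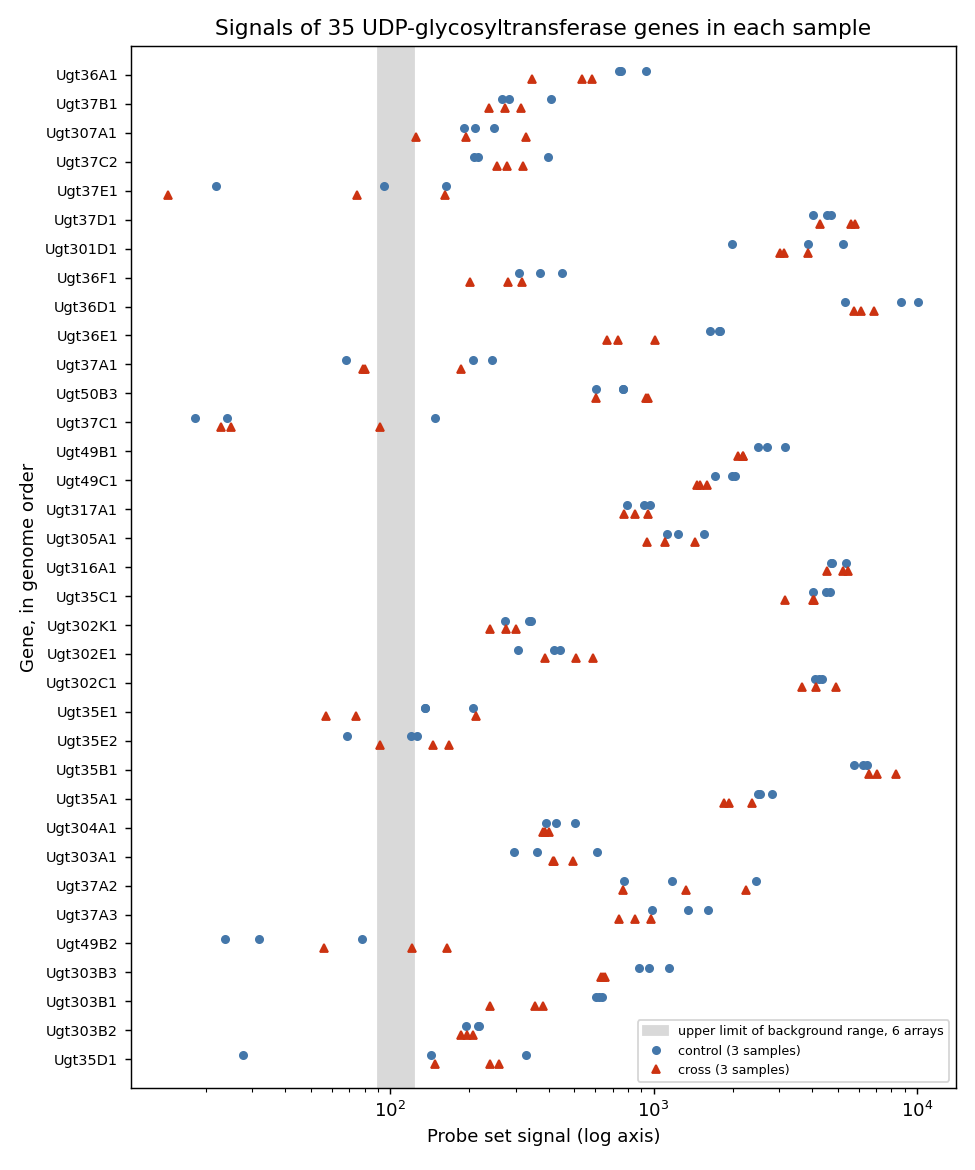
Probe set signal (log axis) of each of the 35 genes in each of the 3 control samples (circles) and 3 samples of the cross (triangles), in genome order, with the upper limits of the background range on the 6 arrays shaded. For most genes the groups interleave, and for Ugt36E1, Ugt303B1 and Ugt303B3 the triangles lie left of all circles.

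**Figure D2:**
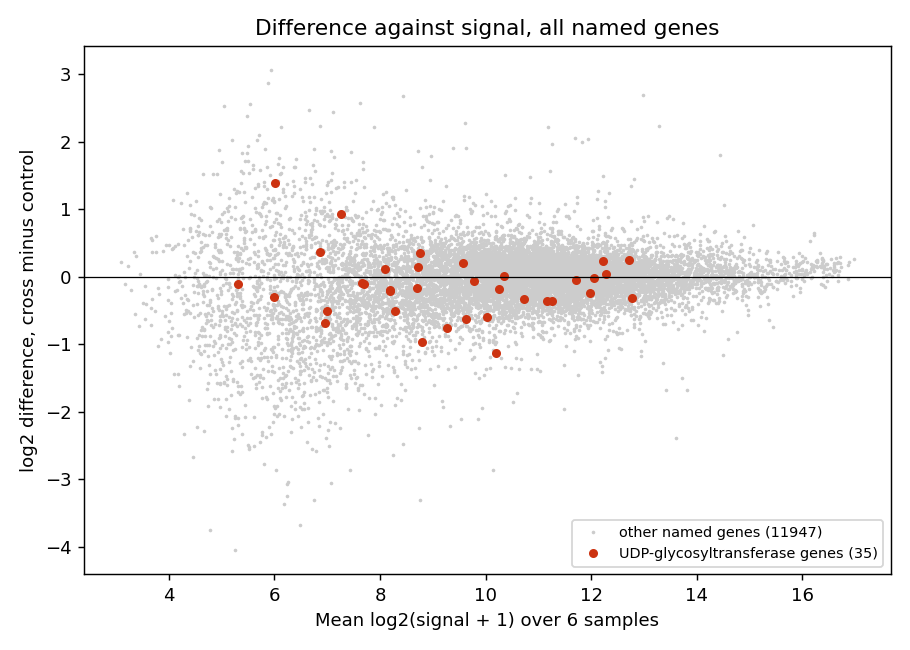
Log2 difference in signal, cross minus control, against mean log2(signal + 1) over the 6 samples, for the 35 UDP-glycosyltransferase genes (large points) and all other named genes (small points). The spread of all genes narrows with signal, and the 35 genes lie within it, with Ugt36E1 at -1.13.

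Ugt36E1, an enzyme of the family that has been linked to odour detection in the antenna, was the member that passed, lower in the cross. Its signals were 1780.5, 1778 and 1641 in the 3 control samples and 732, 666 and 1013 in the 3 samples of the cross. The groups did not overlap, and the highest sample of the cross lay well below the lowest control. The means were 1733 ± 80.1 in control flies and 803 ± 184 in crossed flies (SD, n = 3 each), 2.19-fold apart, with a log2 difference of -1.13 ± 0.20 (SE, 95% interval -1.57 to -0.69; limma, adjusted p = 0.041). Over the alternatives in which the gene was tested, the difference lay between -1.31 and -1.01. Most of these could not turn its sign. A change of prior leaves the difference itself as it was. With groups that did not overlap, leaving out 1 array cannot reverse it. The call did not hold as widely. With a constant prior variance the adjusted p was 0.159, with quantile scaling 0.0649, with median centring 0.0514 and with a test of unequal variances 0.485. It was also lost without control replicate 1 (0.252), control replicate 2 (0.198), control replicate 3 (0.0563), overexpression replicate 1 (0.194) or overexpression replicate 2 (0.0762), and it held without overexpression replicate 3 (0.0277). The name of its probe set carries the ending that Affymetrix gives to sets matching several transcripts, so signal of a related transcript cannot be set apart. In whole flies, fewer cells of a type and less RNA per cell cannot be told apart.

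Markers of the antenna were measured beside it. The summed signal of the 6 measured antennal and olfactory genes was 12781 to 15512 in the control and 12611 to 13953 in the cross, and the ranges overlapped. Orco, the co-receptor of most odorant receptors, had means of 597 ± 41.8 and 558 ± 74.0 (SD, n = 3 each; log2 difference -0.11, 95% interval -0.58 to 0.37). lush, an odorant-binding protein made by support cells, was at 1212 ± 143 and 784 ± 11.7 (SD, n = 3 each), 1.54-fold lower with groups apart and an adjusted p of 0.176. The part of these cells in the difference of Ugt36E1 was not tested.

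Ugt36E1 lies in a run with Ugt36D1 and Ugt36F1, and all 3 were lower in the cross. Ugt36D1 had signals of 8705, 10096 and 5344 in the control and 5784.5, 6153 and 6869 in the cross. Control replicate 3 was as low as the cross and the groups overlapped. The log2 difference was -0.31 (95% interval -0.79 to 0.16; adjusted p = 0.574), moving to -0.58 once control replicate 3 was left out (adjusted p = 0.0768) and to -0.13 on leaving out control replicate 2 instead. Ugt36F1 was dimmer, with mean signals of 376 ± 70.3 in control flies and 266 ± 59.2 in crossed flies (SD, n = 3 each; log2 difference -0.51, 95% interval -1.19 to 0.17).

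**Figure D3:**
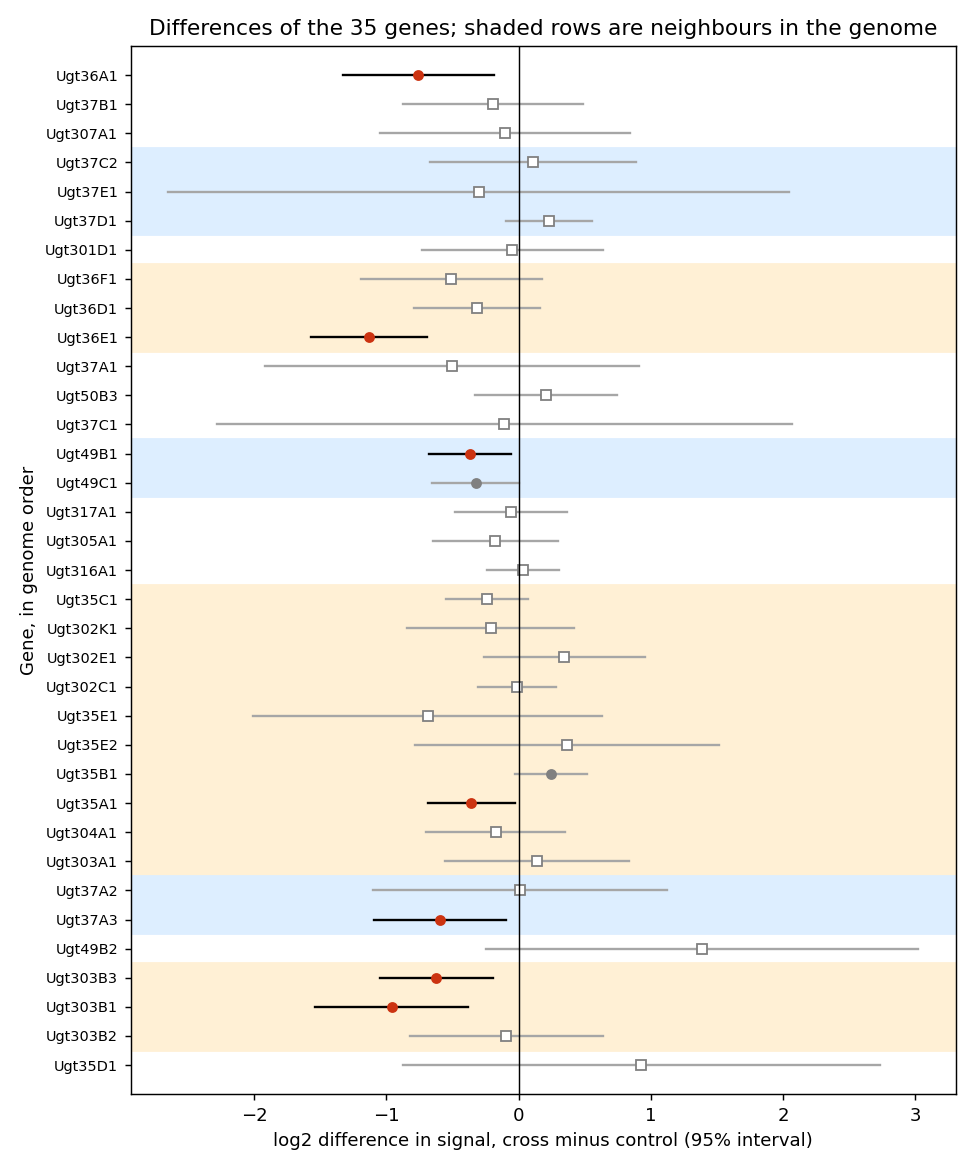
Log2 difference in signal, cross minus control, with its 95% interval from limma for each of the 35 genes, in genome order; black intervals with coloured points mark an unadjusted p under 0.05, filled circles mark groups that did not overlap, and each shaded block is a run of neighbouring genes. Intervals are widest for dim genes such as Ugt37E1 and Ugt37C1, and all 7 coloured points lie left of 0.

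Of the 35 genes, 23 lie in 6 runs of neighbours with at most 2 other protein-coding genes between members, and 12 lie alone. In the runs 16 of 23 were lower, with a median log2 difference of -0.24, and among those alone 8 of 12 were lower, with a median of -0.08. Of the 7 members at an unadjusted p under 0.05, 6 lay in runs and 1 alone. That is 26.1% of the members in runs and 8.33% of those alone, against 13.8% of named genes. Whether the runs differ from the genes outside them was not tested, and neighbours that resemble each other in sequence could share signal on the array.

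In the run of Ugt303B3, Ugt303B1 and Ugt303B2 all 3 genes were lower, with a median log2 difference of -0.62, and Ugt303B1 had the lowest difference of the family after Ugt36E1. Ugt303B1 had signals of 620, 602 and 637 in the control and 380.1, 239 and 354.5 in the cross. The 3 control samples were close together and all lay above the cross. The means were 619.7 ± 17.1 and 324 ± 75.3 (SD, n = 3 each), 1.94-fold apart, with a log2 difference of -0.96 ± 0.26 (SE; limma, adjusted p = 0.156), which did not pass. Over its alternatives the adjusted p of Ugt303B1 ran from 0.116 to 0.547 and the log2 difference from -1.09 to -0.75.

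Ugt303B3 had signals of 959.8, 877 and 1141.5 in the control and 641, 652.5 and 630.5 in the cross. Here the samples of the cross were close together, and the groups did not overlap. The log2 difference was -0.62 ± 0.19 (SE; limma, adjusted p = 0.206), or 1.54-fold. Ugt303B2, the last gene of the run, had signals of 195, 215 and 218 in the control and 195, 186 and 206 in the cross, with overlapping groups and a log2 difference of -0.09 (95% interval -0.82 to 0.64). Whether the log2 differences of these neighbours differ from each other was not tested.

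Ugt36A1, also known as Dorothy, is a member whose enhancer is known to be active in pericardial nephrocytes and haemocytes. Its signals were 939.5, 736 and 755 in the control and 583, 347 and 533 in the cross. The groups did not overlap, and cross replicate 2 was the lowest. The means were 810.3 ± 112 and 488 ± 125 (SD, n = 3 each), 1.69-fold apart, with a log2 difference of -0.76 ± 0.25 (SE, 95% interval -1.33 to -0.18; limma, adjusted p = 0.256).

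Markers of both cell types were measured beside it, and none of them passed the test. The summed signal of the 6 haemocyte genes was 12778 to 16948 in the control and 10719 to 11863 in the cross, without overlap. In that list 5 of 6 genes were lower, led by Pxn, the peroxidasin of the extracellular matrix, 1.88-fold lower (adjusted p = 0.0582), and srp, a GATA factor of haemocytes and fat body, 1.42-fold lower (adjusted p = 0.305). Hml, the haemocyte marker hemolectin, had means of 2835 ± 181 and 2931 ± 76.5 (SD, n = 3 each; log2 difference 0.05, 95% interval -0.22 to 0.32). Without Pxn the other 5 genes summed to 9198.8 to 11425.9 and 8106.4 to 9245.8, and the groups overlapped, a check chosen after seeing the data. The summed signal of the 5 nephrocyte genes was 2295.5 to 2971 in the control and 1972 to 2181 in the cross, again without overlap. In that list 3 of 5 were lower, led by kirre, an adhesion protein of the nephrocyte diaphragm and of muscle, 1.86-fold lower (adjusted p = 0.095). The kirre probe set used carries the ending for several transcripts. kirre and Pxn each had another probe set, dim and within the background range. Their log2 differences there were 0.58 and -0.10 (limma, adjusted p = 0.781 and 0.96). Without kirre the other 4 genes summed to 1148.5 to 1694.1 and 1372 to 1413, which overlapped. Of those 4, Cubn and Amnionless, which form the receptor for protein uptake, were higher, with log2 differences of 0.06 and 0.33. The partner of kirre, sns, was 1.18-fold lower, at 443 ± 55.4 and 376 ± 44.7 (SD, n = 3 each; log2 difference -0.23, 95% interval -0.78 to 0.32). No listed marker of either cell type was within the background range on all arrays. The part of these cells in the difference of Ugt36A1 was not tested.

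**Figure D4:**
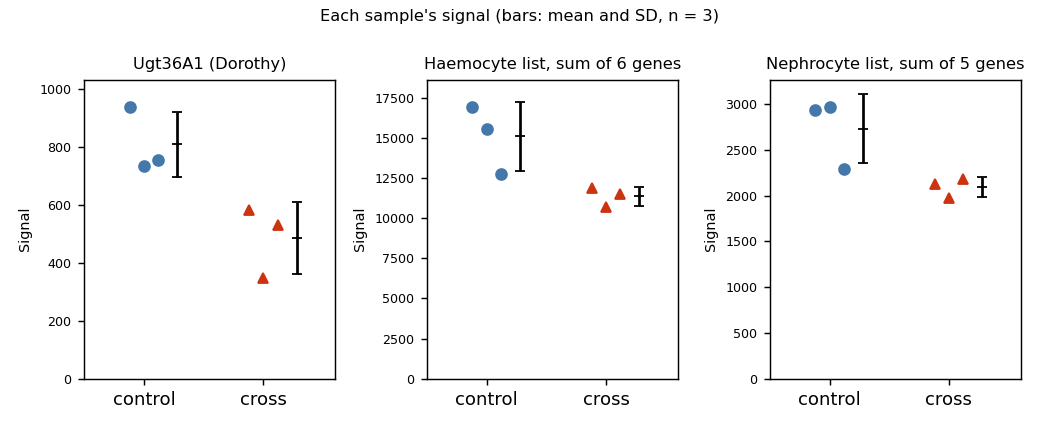
Signals in each of the 3 control samples (circles) and 3 samples of the cross (triangles) of Ugt36A1, of the sum of 6 haemocyte genes and of the sum of 5 nephrocyte genes, on linear axes from 0, with the mean and SD (n = 3) beside each group. In each panel the samples of the cross lie below all control samples; without Pxn or kirre the respective sums overlap.

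The largest run holds 10 genes, formerly named Ugt86D with a letter, from Ugt35C1 to Ugt303A1. It did not move in a single direction: 6 were lower and 4 higher, with a median log2 difference of -0.09 and a range from -0.69 to 0.36. Ugt35B1, whose transcripts were first described from the antenna, had signals of 5792, 6267 and 6454 in the control and 7049.8, 8358 and 6584 in the cross. It was the only member higher in the cross with groups that did not overlap on the deposited scale, at 1.18-fold (log2 difference 0.24 ± 0.12, SE, 95% interval -0.03 to 0.51; limma, adjusted p = 0.457).

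Its neighbour Ugt35A1 went the other way. The signals of Ugt35A1 were 2537.5, 2488 and 2811 in the control and 1932, 2362 and 1845 in the cross. The groups did not overlap, although cross replicate 2 came close to the lowest control. The log2 difference was -0.36 ± 0.15 (SE, 95% interval -0.69 to -0.03; limma, adjusted p = 0.361), or 1.28-fold. Ugt35C1, formerly Ugt86Dd, in which natural variants have been linked to nicotine resistance of larvae, had means of 4405 ± 339 in control flies and 3757 ± 515 in crossed flies (SD, n = 3 each; log2 difference -0.24, 95% interval -0.55 to 0.07).

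In the rest of that run the groups overlapped on the deposited scale. Ugt302C1 had signals of 4252, 4116 and 4376 in the control and 4917.5, 4124 and 3676 in the cross, so that the cross spanned the control on both sides, with a log2 difference of -0.01 and a 95% interval of -0.31 to 0.28. Ugt302K1, Ugt304A1 and Ugt303A1 had log2 differences of -0.21, -0.17 and 0.14. Ugt302E1 was at 389 ± 72.4 and 495 ± 102 (SD, n = 3 each), with a log2 difference of 0.35 (95% interval -0.26 to 0.96), and with quantile scaling its groups no longer overlapped, as those of Ugt35B1 did not. Ugt35E1 and Ugt35E2 were dim, and each fell within the background range on at least 1 array.

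**Figure D5:**
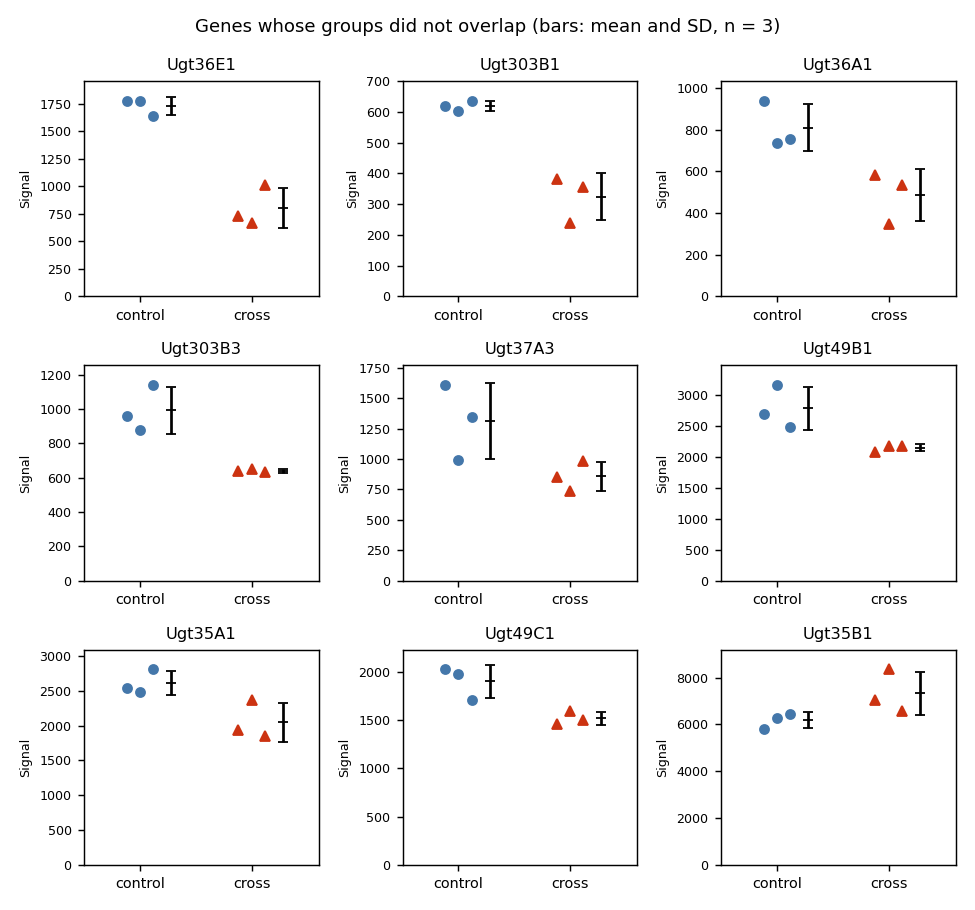
Signal (linear axes from 0) in each of the 3 control samples (circles) and 3 samples of the cross (triangles) of the 9 genes whose groups did not overlap, with the mean and SD (n = 3) beside each group. Lower signals in the cross appear in 8 panels and higher signals in that of Ugt35B1.

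The neighbours Ugt49B1 and Ugt49C1 were lower to a like degree. Ugt49B1 had signals of 2697, 3161 and 2487 in the control and 2084, 2180.4 and 2179.9 in the cross. Ugt49C1 had signals of 2031, 1978 and 1712 in the control and 1459.7, 1597 and 1502 in the cross. In both genes the groups did not overlap and the samples of the cross were the tighter set. The log2 differences were -0.37 ± 0.14 for Ugt49B1 (SE, 95% interval -0.68 to -0.06; limma, adjusted p = 0.314) and -0.32 ± 0.15 for Ugt49C1 (SE, 95% interval -0.65 to 0.0035; limma, adjusted p = 0.404).

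The neighbours Ugt37A3 and Ugt37A2 did not share a pattern. Ugt37A3 had signals of 1610.5, 988 and 1347 in the control and 854, 741 and 982 in the cross, a log2 difference of -0.60 ± 0.22 (SE; limma, adjusted p = 0.311). Its highest sample of the cross lay just below its lowest control, and the groups overlapped once the arrays were centred. Ugt37A2 was the member with the widest spread at this level of signal. Its signals were 1177, 773.5 and 2453.5 in the control and 2253, 1323 and 764 in the cross, a 3.17-fold range within the control and a 2.95-fold range within the cross. The log2 difference was 0.01 with a 95% interval from -1.10 to 1.12, and a change within that interval was not detectable with these samples.

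In several other members, of differing brightness, the groups overlapped and the intervals spanned 0. A change of a size within those intervals was not excluded. Ugt316A1 had signals of 4716, 4754 and 5401 in the control and 5454, 4538 and 5257 in the cross, with a log2 difference of 0.03 (95% interval -0.24 to 0.31), the narrowest interval of the family. Ugt37D1 was at 4436 ± 372 and 5245 ± 838 (SD, n = 3 each; log2 difference 0.23, 95% interval -0.09 to 0.56), and its probe set also carries the ending for several transcripts. Ugt301D1 varied within the control, with signals of 3843.5, 5241 and 1989.9, against 3131.5, 3025 and 3845 in the cross. Control replicate 3, its lowest sample, was also the lowest of the 6 for Ugt36D1 and for Lsp2, a storage protein of the fat body with signals of 3797, 6174 and 429 in the control and 633.5, 2449 and 1489 in the cross. The log2 difference of Ugt301D1 was -0.05 (95% interval -0.73 to 0.64), and it was 0.26 without control replicate 2 and -0.44 without control replicate 3. Ugt317A1, Ugt305A1 and Ugt50B3 had log2 differences of -0.06, -0.18 and 0.21, with 95% intervals of -0.48 to 0.36, -0.65 to 0.30 and -0.33 to 0.74. The probe set of Ugt50B3 is the remaining member of the kind that matches several transcripts.

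The dim end of the family could not be resolved. Signals were taken as background up to a limit set on each array by 27 probe sets for Bacillus transcripts, their 95th percentile, which was 108 ± 15.4 on control arrays and 110.2 ± 14.7 on those of the cross (SD, n = 3 each). Of the 35 members, 28 were above it on all 6 arrays and 7 were within it on some arrays. Among the 28, 20 were lower and 8 higher, with a median log2 difference of -0.17. Ugt49B2 had signals of 78.4, 23.6 and 31.9 in the control, all within the background range, and 121, 56.1 and 164 in the cross, of which 1 was. The groups overlapped, and no fold is given. Ugt37C1 had signals of 18.1, 24.0 and 148 in the control and 24.9, 91.1 and 22.7 in the cross, where all lay within the background range. Ugt37E1 had signals of 94.4, 163 and 21.8 in the control and 74.8, 14.4 and 162 in the cross, a spread of 7.48-fold and 11.2-fold within groups. Ugt35D1 had signals of 143, 27.7 and 328 in the control and 259, 148 and 239 in the cross, and its log2 difference of 0.93 became -0.05 without control replicate 2. Ugt37B1, Ugt307A1 and Ugt37C2 lay above the background range on all arrays, with log2 differences of -0.19, -0.10 and 0.11. Ugt37A1 lay within it on 1 control array and 2 arrays of the cross, with a log2 difference of -0.51 (95% interval -1.92 to 0.91).

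Genes that supply UDP-sugars to these enzymes, or that conjugate and export small molecules beside them, had 1 of 20 measured members past the test, lower in the cross, and 5 of 20 (25.0%) at an unadjusted p under 0.05, 1 higher and 4 lower. The shares over named genes were 0.868% and 13.8%. The list's median log2 difference was -0.16. sgl, the dehydrogenase that makes UDP-glucuronic acid from UDP-glucose, had signals of 4565, 4614 and 4459 in the control and 6467, 5865 and 6560.3 in the cross. The groups did not overlap, and the difference was 1.38-fold (log2 difference 0.47 ± 0.10, SE; limma, adjusted p = 0.095). UGP, the pyrophosphorylase that makes UDP-glucose, was dim, at 119 ± 25.4 and 163 ± 42.7 (SD, n = 3 each; log2 difference 0.44, 95% interval -0.56 to 1.45). The UGP signal lay within the background range on 1 control array. Galt, the uridylyltransferase of galactose metabolism, was 1.29-fold lower (limma, adjusted p = 0.362).

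The gene that passed was St3, by its brighter probe set. It encodes a sulfotransferase, an enzyme class that adds sulfate where UDP-glycosyltransferases add sugar. Its signals were 1512, 1524 and 1651 in the control and 705, 820.4 and 899 in the cross, without overlap and 1.94-fold apart (log2 difference -0.96 ± 0.17, SE; limma, adjusted p = 0.0436). St3 had a dimmer probe set as well, at 351 ± 112 and 426 ± 134 (SD, n = 3 each), with a log2 difference of 0.28 (limma, adjusted p = 0.77), so its probe sets disagree. Their mean had a log2 difference of -0.34 (adjusted p = 0.606). The call of the brighter set was lost with a constant prior (adjusted p = 0.136), with quantile scaling (0.0546), with median centring (0.0624), with the replicate block (0.196), with unequal variances (0.396), without probe sets for several transcripts (0.0531) and on leaving out any single array (0.0653 to 0.252). Mdr49 and Mdr50, exporters of the ABC family, were 1.90-fold and 1.48-fold lower with groups apart (limma, adjusted p = 0.0569 and 0.227). Their relative Mdr65 was 1.22-fold higher, also with groups apart, at 1485 ± 129 and 1805 ± 159.8 (SD, n = 3 each). Mdr49 had signals of 4918, 5150.1 and 3686 in the control and 2264, 2922 and 2055 in the cross.

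Of 10 listed regulators of detoxification genes, 0 passed in limma, 2 (20.0%) were at an unadjusted p under 0.05, against 13.8% of named genes, and 0 passed with a constant prior. maf-S, the small Maf partner of the stress factor Cnc, was 1.22-fold higher, at 7413 ± 486 and 9005 ± 341 (SD, n = 3 each; limma, adjusted p = 0.301). EcR, the ecdysone receptor, was 1.65-fold lower, at 970 ± 201 and 590.5 ± 154 (SD, n = 3 each; limma, adjusted p = 0.269). cnc itself had means of 10696 ± 1564 and 10647 ± 897 (SD, n = 3 each; 95% interval of the log2 difference -0.30 to 0.30). Its inhibitor Keap1 had a log2 difference of 0.02 (95% interval -0.37 to 0.41), and the xenobiotic receptor gene Hr96 of 0.09 (95% interval -0.24 to 0.43).

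Other families of detoxification enzymes were counted in the same way. Over all named genes 0.868% passed, 13.8% were at an unadjusted p under 0.05 and 19.8% had groups apart. Of 83 cytochrome P450 genes, which oxidise the compounds that UDP-glycosyltransferases then conjugate, 6 passed in limma, 1 higher and 5 lower. At an unadjusted p under 0.05 there were 30 (36.1%), 11 higher and 19 lower, and 32 (38.6%) had groups apart, 11 higher and 21 lower, with a median log2 difference of -0.03. Of 34 glutathione S-transferase genes, 1 passed, lower in the cross. At an unadjusted p under 0.05 there were 6 (17.6%), 2 higher and 4 lower, and 13 (38.2%) had groups apart, 5 higher and 8 lower, with a median of 0.01. The median size of the log2 difference, without its sign, was 0.24 in the UDP-glycosyltransferase genes, 0.29 in the cytochrome P450 genes, 0.28 in the glutathione S-transferase genes and 0.22 over all named genes. The differences between these families were not tested.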

How the data were processed

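Total RNA of 6 whole-fly samples was biotin-labelled and measured on Drosophila Genome 2.0 arrays of Affymetrix, according to the labels' protocols. The deposited values are probe set intensities on a linear scale. Which software summarised and scaled them is not stated in the sources used here. Depth does not apply to arrays, and their number, 6, limits the precision. The 183 control probe sets were left out, which leaves 18769. Probe sets with 1 gene symbol in the platform annotation were named, through the gene identifier, from the Release 6 gene table, and the brightest stood for a gene. Its build was not tied to the arrays, so no coordinates are given, and no sequences were used.

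Values were converted to log2(signal + 1), so folds understate changes of low signals. Cross minus control was tested 2-sided with limma 3.58.1 in R 4.3.3 (lmFit, eBayes with a trended and robust prior, no block) and Benjamini-Hochberg adjusted p-values across probe sets. The members, lists, prior and tests were chosen with earlier results of these data known. Every member may be named; signals are given for those at an unadjusted p under 0.05, with groups apart, or brightest and dimmest, and for some others chosen after their values were seen. Genes of the supply and regulator lists are named at an unadjusted p under 0.05, and Mdr65, UGP, cnc, Keap1, Hr96 and the tissue markers were chosen after their values were seen. In simulated data with 200 of 18769 probe sets changed, the fit recovered 66 of 100 changed 4-fold and 42 of 100 changed 2-fold, with 7 false calls. The simulated noise was normal and took its spread from that same fit. The simulation therefore cannot tell whether the prior suits these arrays. Alternatives were the prior, scaling, pseudocount 16, a filter on dim probe sets, the replicate number as a block, unequal variances, probe set choice and leaving out each array. Same-numbered samples of the groups did not deviate together, with correlations of -0.023, 0.00066 and -0.097.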

Additional observations from a re-analysis of the deposited data

How the results depend on the processing

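Over all probe sets 147 passed, and 0 with a constant prior, 8 with the replicate number as a replicate block, 1 with unequal variances, 81 without probe sets for several transcripts, and 7 to 225 with 1 array left out. Among the UDP-glycosyltransferase genes 1 passed, Ugt36E1. The count was 0 with a constant prior, quantile scaling, median centring, the replicate block (Ugt36E1 adjusted p = 0.204) and unequal variances, 0 without probe sets for several transcripts, which leaves Ugt36E1 itself out, and 0 to 1 with 1 array left out. It stayed 1 with a trended prior that was not robust, a pseudocount of 16 and removal of the 33.3% dimmest probe sets. With the mean of a gene's probe sets it was also 1, but that is no separate check. Each member has 1 probe set, so its values stay the same there. The replicate numbers only name the samples, and the correlations of same-numbered deviations were below 0.1. The family's median of -0.17 was -0.016 with quantile scaling and -0.12 with median centring, and -0.17 to -0.13 with 1 array left out. Under centring the median of all named genes rose alike, from -0.0020 to 0.05. Of the 35 genes, 23 kept their sign in every alternative run and 12 changed it at least once. A change of prior cannot turn a sign, nor can leaving out 1 array where groups did not overlap. Quantile scaling turned Ugt307A1 to 0.11, Ugt303B2 to 0.11 and Ugt37C1 to 0.13, and centring turned Ugt302C1 to 0.037 and Ugt301D1 to 0.0039. With 1 array left out the log2 difference ranged from -0.13 to 0.085 for Ugt302C1, -1.12 to 0.65 for Ugt37E1, -0.46 to 0.23 for Ugt307A1 and -0.44 to 0.26 for Ugt301D1. It ranged from -0.055 to 0.41 for Ugt37C2, -0.14 to 0.016 for Ugt317A1, -0.048 to 1.71 for Ugt35D1 and -0.018 to 0.11 for Ugt316A1. It ranged from -0.38 to 0.46 for Ugt37A2, -0.085 to 0.44 for Ugt303A1 and -0.74 to 0.81 for Ugt37C1. None of these 12 passed in any alternative; the causes were not tested. The alternatives for St3 were added after seeing the data. Dim members limit what can be resolved.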
